A study of Saccharomyces cerevisiae SK1 with 28 samples.

Results

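Described here are the ChIP-seq summits of budding yeast promoters that lay far upstream of the gene they were assigned to. Each deposited summit was paired by the authors with the promoter windows that contain it, and every window was 600 bp long and ended at the start of its gene. A summit was taken as far when it lay in the window of 1 gene only and at least 400 bp upstream of that gene's start, so that it fell in the distal part of the window. Of 1055 listed summits in 14 ChIP libraries, 742 lay in a single window, and 322 of these were far (43.4% of the single-window summits and 30.5% of all). They belonged to 144 of 561 listed genes. Another 420 single-window summits lay nearer than 400 bp, and 313 summits lay in more than 1 window. The members were thus chosen by the measured summit position and the number of windows, so the distances below are descriptions and carry no test. Lying in a single window does not mean that no other gene is near: a summit can be past the start of a facing gene, inside that gene, as described below for HYP2 and KAR2.

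All cells were wild-type (WT) SK1, a strain of Saccharomyces cerevisiae that sporulates readily, grown at 30 °C. The 7 states had 2 ChIP libraries each: exponential growth in the rich medium YPD (vegetative), vegetative cells with DTT, 6 h and 21 h after transfer from YPD to BYTA (premeiotic starvation, per the labels), and 5.5 h, 6 h 45 min and 8 h after transfer into sporulation medium. The sources used here name neither the immunoprecipitated protein nor how much DTT was used or for how long. Lists were long with DTT (296 and 245 summits) and at 6 h in BYTA (277 and 91), and held between 4 and 23 summits in each of the other 10 libraries. Read depth is unknown, as is the rule by which summits were listed, and a gene that is not listed is not thereby shown to be unbound.

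In budding yeast, activators bind upstream activating sequences, which usually lie a short way upstream of the start of transcription in a stretch with few nucleosomes. Some genes have longer upstream regions, with regulator sites far from the gene. DTT is a reducing agent that disturbs disulfide bond formation in the endoplasmic reticulum (ER) and activates the unfolded protein response (UPR), in which Ire1 splices the mRNA of the transcription factor Hac1, and Hac1 induces ER chaperones such as Kar2. BYTA is an acetate-based medium in which cells respire before they are moved to sporulation medium.

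The DTT and 6 h BYTA lists held 304 of the 322 far summits (94.4%), close to their share of all single-window summits, 687 of 742 (92.6%). With DTT, 90 of 227 single-window summits were far in replicate 1 (39.6%, exact 95% interval 33.2 to 46.3) and 80 of 186 in replicate 2 (43.01%, 35.8 to 50.5). At 6 h in BYTA, 93 of 207 were far in replicate 1 (44.9%, 38.03 to 52.0) and 41 of 67 in replicate 2 (61.2%, 48.5 to 72.9). Every DTT library was thus below every 6 h BYTA library, while the 6 h BYTA replicates differed from each other by more than the means of the states did. The mean share was 41.3% ± 2.38 (SD, n = 2) with DTT and 53.1% ± 11.5 (SD, n = 2) at 6 h in BYTA, a difference of -11.7 percentage points. The two-sided exact permutation test over libraries gave p = 0.33, the smallest p that 2 libraries against 2 allow.

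In vegetative cells without DTT, 8 of 13 single-window summits were far in replicate 1 (61.5%, exact interval 31.6 to 86.1) and 5 of 9 in replicate 2 (55.6%, 21.2 to 86.3). The mean of 58.5% ± 4.23 (SD, n = 2) was above that with DTT by more than the spread between replicates. DTT minus vegetative was -17.2 points, again with the smallest possible exact permutation p of 0.33, and the intervals of all 4 libraries overlapped. At 21 h in BYTA 1 of 8 and 2 of 9 single-window summits were far. The 6 sporulation libraries together listed 70 summits, of which 16 lay in a single window and 2 were far. Shares from so few summits have intervals too wide to rank these states.

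**Figure D1:**
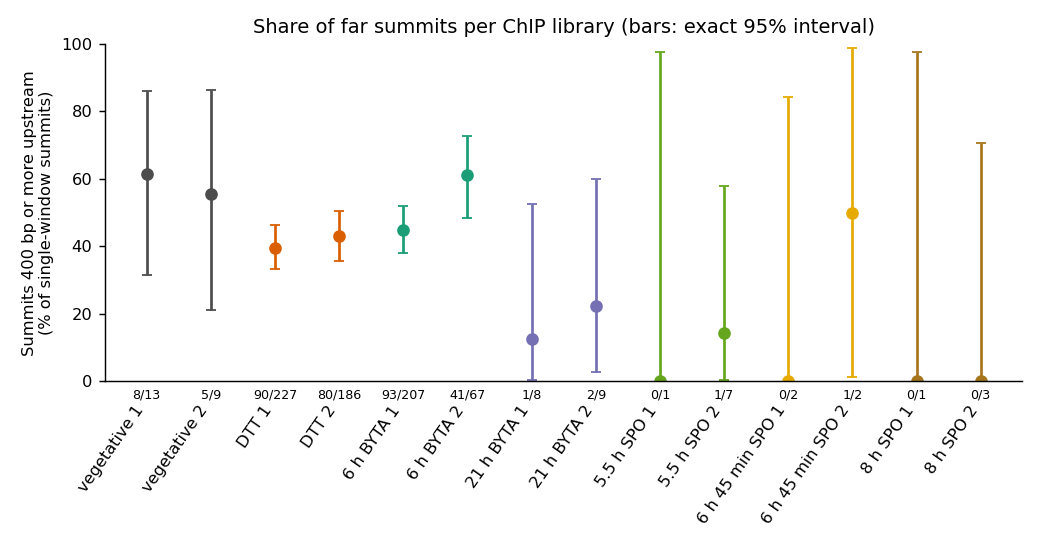
Share of single-window summits that were far (y axis, percent) in each of the 14 ChIP libraries (x axis; SPO is sporulation medium), with exact 95% intervals and the counts under the axis. The DTT libraries sit at 39.6 and 43.01% and the 6 h BYTA libraries at 44.9 and 61.2%, and the intervals of the short lists span much of the axis.

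The far summits were the distal side of a broad distribution rather than a separate cluster. With DTT, the single-window summits numbered 12, 44, 94, 95, 98 and 70 in successive 100 bp steps from 1 to 600 bp upstream, both libraries together. At 6 h in BYTA the same steps held 7, 17, 51, 66, 71 and 62. Neither series had a gap at 400 bp. The median distance of far summits was 485.5 bp in both DTT libraries and 492 and 499 bp at 6 h in BYTA. The windows stop at 600 bp, and AMN1, which encodes an inhibitor of mitotic exit, had its 6 h BYTA summit at exactly 600 bp, so distances beyond this edge were not seen.

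**Figure D2:**
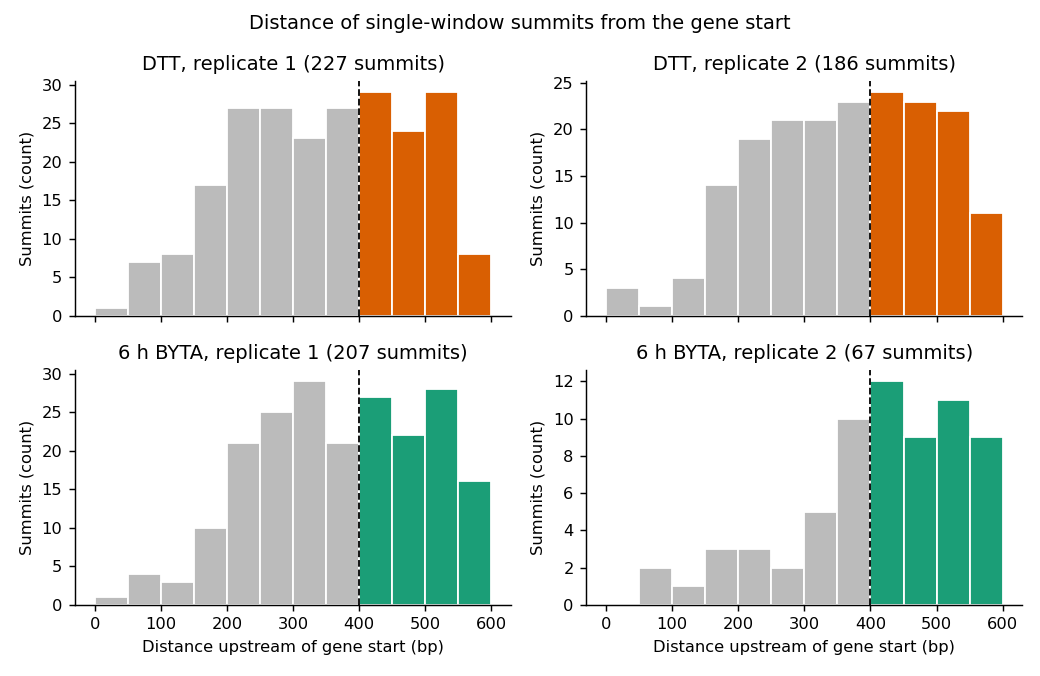
Counts of single-window summits (y axis) by distance upstream of the gene start in 50 bp steps (x axis, bp) in the 4 long lists. Coloured bars are summits at 400 bp or more, grey bars are nearer ones, and the dashed line marks 400 bp; counts stay high on both sides of the line.

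Between 400 and 405 bp, just inside the threshold, lay 14 summits, and between 395 and 399 bp, just outside it, lay 6. At 400 bp were HCM1, a forkhead transcription factor gene (DTT replicate 1), MET17, which encodes homocysteine synthase (DTT replicate 2), and FBA1, the aldolase gene of glycolysis (6 h BYTA replicate 1). MET17 was at 395 bp in DTT replicate 1 and so was not far there. Also inside were ACT1 (actin, 401 bp at 6 h in BYTA), SRF1 (401 bp with DTT), YHB1 (flavohaemoglobin, 403 bp at 6 h in BYTA), NEO1 (a phospholipid flippase, 404 bp with DTT) and HLR1 (405 bp in DTT replicate 1 and in 6 h BYTA replicate 1). Just outside were TDA1 (395 bp in DTT replicate 1, 397 bp in 6 h BYTA replicate 2) and UBX6 (397 bp in DTT replicate 2).

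Most genes far with DTT were listed in both of its libraries, and fewer of those far at 6 h in BYTA were. With DTT, 100 genes had a far summit in either library, and 80 of these (80%) were listed in both, against 74.7% of all 383 genes listed with DTT. For 70 genes the summit was far in both DTT libraries. At 6 h in BYTA, 95 genes had a far summit in either library and 40 of these (42.1%) were listed in both, against 30.4% of all 355 listed genes, with 39 far in both. The second list was the shorter, and 39 of its 41 far summits had their gene in the first. In vegetative cells the count was 4 of 10 genes (40%), against 60% of all 25 listed genes.

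Set against nearer single-window summits of the same library, the recurrence was not uniformly higher or lower. In DTT replicate 1, 85.6% of far and 70.8% of nearer summits had their gene listed in replicate 2, and in DTT replicate 2 the shares were 91.3 and 94.3%. In 6 h BYTA replicate 1 they were 43.01 and 21.1%, and in replicate 2 they were 95.1 and 96.2%. In vegetative replicate 1 they were 37.5 and 80%, and in replicate 2 they were 80 and 75%. The far share was higher in 3 of 6 libraries, with a mean difference of -0.82 percentage points ± 22.5 (SD, n = 6). The two-sided exact sign-flip permutation test gave p = 0.906 (adjusted p = 0.906 over 2 tests; smallest possible p 0.0313). It took the 6 libraries as separate units, although each library was scored against its partner of the same state. The values within a state are therefore linked, and neither the SD nor these p-values rest on independent units. Without the vegetative libraries the mean turned to 8.15 points, exact sign-flip p = 0.5.

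The place of the summit repeated closely between replicates. For the 77 genes far in DTT replicate 1 and listed in replicate 2, the median distance between the replicate summits was 10 bp, and 39 lay within 10 bp. At 6 h in BYTA the median over 40 genes was 7.5 bp, and the largest distance was 41 bp. With DTT, 5 genes differed by more than 50 bp between replicates: KAR2 by 120 bp, SED1 (515 and 589 bp), AQR1 (478 and 416 bp), PRY1 (533 and 478 bp) and ERG25 (519 and 571 bp). Over all libraries, 94 genes had a far summit in at least 2. The median range of these far summits was 16 bp per gene, and 85 genes ranged over 50 bp or less. The largest such range was 158 bp at DSC3, at 422 bp in vegetative replicate 1 and 580 bp in DTT replicate 2. These ranges leave out summits that were not far, so the far rule and the window edge limit them in advance. TAL1 counts with 9 bp, although its summits with DTT lay at 365 and 373 bp. Every listed summit was far for 86 genes with 2 or more listings.

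By deposited score, far summits ranked close to the middle of their lists. The score is the authors' own value, so it was turned into a rank percentile within each list, 100 being the highest. With DTT, the median percentile of far summits was 50 in replicate 1 and 50.8 in replicate 2, and that of nearer single-window summits was 43.1 and 44.5. At 6 h in BYTA the far medians were 58.3 and 53.3, and the nearer ones were 46.2 and 41.2. All 4 long lists thus put far summits higher, while the short vegetative lists split: 22.2 against 58.3 in replicate 1, and 57.7 against 34.6 in replicate 2.

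The mean difference in rank percentile was 4.07 points ± 20.6 (SD, n = 6), positive in 5 of 6 libraries. The two-sided exact sign-flip permutation test gave p = 0.656 (adjusted p = 0.906 over 2 tests), so the difference was within the spread between libraries. Vegetative replicate 1, with 8 far and 5 nearer summits, decided much of that: without it the mean was 12.1 points, exact sign-flip p = 0.0625, the smallest that 5 libraries allow. In the 4 long lists alone, a choice made after the values were seen, the mean was 9.36 points, and its exact p of 0.125 is likewise the smallest possible. When shared summits were added to the comparison the sign turned, to -2.54 points.

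In 6 h BYTA the upper end of the list held more far than nearer summits. Of the 93 far summits in replicate 1, 32 (34.4%) stood in the top 25% of the list by score, against 24.9% of all its summits and 13.2% of nearer single-window ones. In replicate 2, 11 of 41 (26.8%) did, against 25.3% of all and 15.4% of nearer ones. With DTT the shares were near the background: 21 of 90 (23.3%, against 25% of all) and 17 of 80 (21.3%, against 24.9%). In replicate 2 with DTT the nearer share, 24.5%, was the higher of the pair. These shares were not tested between states.

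The 5 best-ranked far summits of DTT replicate 1 lay upstream of IRC4, a gene of unknown molecular function (497 bp, rank 2 of 296), APQ12, which encodes a nuclear envelope protein (540 bp, rank 4), KAR2 (510 bp, rank 10), AMN1 (596 bp, rank 12) and ROX1, the repressor of hypoxic genes (544 bp, rank 15). In DTT replicate 2 they were IRC4 (499 bp, rank 1 of 245), ROX1 (545 bp, rank 5), SNQ2 (rank 8), HYP2 (rank 11) and PSA1 (rank 14). IRC4 and ROX1 were in both sets. In 6 h BYTA replicate 1 the 5 best were PSA1 (rank 4 of 277), PIL1 (rank 5), AMN1 (600 bp, rank 8), TPO4 (rank 15) and RPM2, the protein subunit of mitochondrial RNase P (507 bp, rank 17). In replicate 2 they were PSA1 (rank 2 of 91), ALD6, the cytosolic acetaldehyde dehydrogenase gene that makes acetate (rank 6), PCK1, the gluconeogenic phosphoenolpyruvate carboxykinase gene (rank 9), RPM2 (514 bp, rank 10) and PIL1 (rank 11). IRC4 stood at ranks 69 and 88 in the 6 h BYTA lists, near the end of the second.

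PSA1 was the most recurrent gene. It encodes GDP-mannose pyrophosphorylase, which makes the mannose donor for protein glycosylation and cell wall mannan. Its window on chromosome IV ran from 368819 to 369418, minus strand, in the SK1 coordinates of the deposited tables. Its summit was 495 and 493 bp upstream in vegetative cells, 479 and 490 bp with DTT, 492 and 495 bp at 6 h in BYTA, and 485 bp in replicate 1 at 21 h in BYTA. The 7 summits thus fell within 16 bp of each other, and the gene headed both vegetative lists. At 21 h it was rank 15 of 22.

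Another 27 genes had a far summit in all 4 DTT and 6 h BYTA libraries, which makes 28 with PSA1, of 78 genes listed in all 4. They included genes for drug and polyamine efflux. SNQ2, an ABC multidrug transporter gene, was at 587 and 574 bp with DTT and at 570 and 588 bp at 6 h in BYTA, and ranked between 8 and 24 in its lists. PDR5, another ABC transporter gene, was at 467 and 472 bp with DTT and at 439 and 438 bp at 6 h in BYTA. PDR15, of the same family, was at 459 and 449 bp and then at 500 and 459 bp. SNQ2, PDR5 and PDR15 thus did not share a single position, although PDR5 and PDR15 were close to each other with DTT.

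The polyamine exporter genes TPO4 (447, 440, 444 and 430 bp, DTT libraries first) and TPO1 (528, 547, 529 and 530 bp) each kept their place across states. So did PDR16 (405, 414, 412 and 405 bp), which encodes a phosphatidylinositol transfer protein. PIL1, the core gene of eisosomes, the furrows of the plasma membrane, was at 423 and 425 bp with DTT and 415 and 414 bp at 6 h in BYTA. FRE4, a ferric reductase gene, was at 544, 523, 538 and 532 bp, and STL1, the glycerol-proton symporter gene, at 556, 561, 569 and 588 bp.

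Of the cell wall and surface genes listed for this description, CCW12, CWP1 and SED1 were among the 28. CCW12, which encodes an abundant cell wall mannoprotein, was at 514 and 509 bp with DTT and 524 and 556 bp at 6 h in BYTA. CWP1, a further mannoprotein gene, was at 466 and 468 bp and then at 442 and 419 bp. SED1, a GPI-anchored wall protein gene, was at 515 and 589 bp and then at 523 and 520 bp, so its outlying value was DTT replicate 2. Outside that list, UTH1 was at 496, 483, 492 and 499 bp, ZEO1 at 529, 516, 512 and 508 bp, and PRY1, which encodes a secreted sterol-binding protein, at 533, 478, 462 and 474 bp. GIC2, an effector gene of the polarity GTPase Cdc42, was at 421, 437, 421 and 419 bp.

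Metabolic members were CDC19, the pyruvate kinase gene (519 and 517 bp with DTT, 502 and 501 bp at 6 h in BYTA), and PDC1, the pyruvate decarboxylase gene (537 and 537 bp, then 532 and 517 bp). PCK1 was at 551 and 548 bp with DTT and at 543 and 526 bp at 6 h in BYTA. ALD6 was at 518 and 497 bp and then at 570 and 558 bp, and LYS20, the homocitrate synthase gene of lysine synthesis, at 479 and 476 bp and then at 446 and 429 bp. The remaining members were HYP2, which encodes the translation factor eIF5A, VHR2, which encodes a nuclear protein, IRC4, and YIL055C, YER137C and YBL029C-A, whose functions are not known. YBL029C-A had the widest difference between states, at 520 and 512 bp with DTT and 447 and 424 bp at 6 h in BYTA.

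DTT and 6 h BYTA positions did not overlap for 19 of the 28 (67.9%), against 61.5% of all 78 genes listed in all 4 libraries, which include the 28, and 6 of 18 genes (33.3%) with a nearer single-window summit in all 4. The summit was farther with DTT in 11 (against 29.5% of the 78) and nearer in 8 (against 32.1%). Among the 18 nearer genes it was farther in 1 and nearer in 5. The 78 include facing genes that share a summit, such as OLE1 and SDS23. A move away from one of them is a move towards the other, so such pairs count in both directions and balance the 78. The median absolute difference was 15.75 bp, against 14.75 bp over the 78 and 7.25 bp over the 18 nearer genes. Median distances between replicates were 8.5 bp with DTT and 10 bp at 6 h in BYTA for the 28. They were 5 and 9.5 bp for the 78, and 4.5 and 12.5 bp for the 18 nearer genes. A gap of more than 10 bp between the states was seen in 7 of 28 (25%), in 23 of 78 (29.5%) and in 3 of 18 nearer genes (16.7%). An exact permutation test of 1 gene with 2 libraries per state cannot go below p = 0.33, so these are values only.

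**Figure D3:**
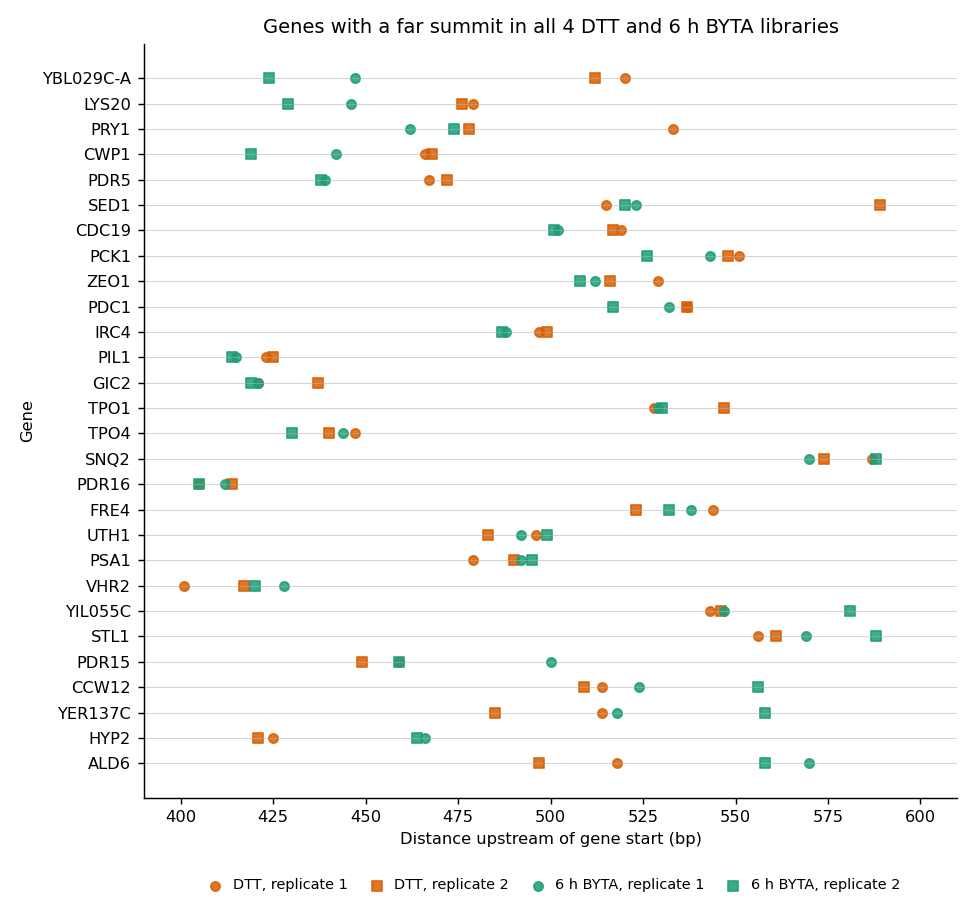
Distance upstream of the gene start (x axis, bp) of the summits of the 28 genes that were far in all 4 DTT and 6 h BYTA libraries (y axis), ordered by DTT minus 6 h BYTA; each point is 1 library. At the ends, YBL029C-A, LYS20 and PDR5 were farther with DTT, and ALD6 and HYP2 were nearer, while SNQ2, PDR16 and FRE4 overlapped.

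Many far genes were listed in only 1 of the 2 long-list states, at about the rate of all listed genes. Of the 100 genes far with DTT, 61 (61%) were listed at 6 h in BYTA, against 54% of all genes listed with DTT. Of the 95 genes far at 6 h in BYTA, 60 (63.2%) were listed with DTT, against 58.3%. Both groups shared 56 genes that were far in each state, 56% of the former and 58.9% of the latter.

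Far in both DTT libraries and listed in neither 6 h BYTA library were 17 of 70 genes (24.3%), against 37.1% of all 286 genes listed in both DTT libraries. This difference was not tested. The 17 include HXT3, a low-affinity glucose transporter gene (429 and 421 bp), and RGT1, the repressor of glucose transporter genes (515 and 513 bp). CRH1, a chitin transglycosylase gene of the cell wall, was at 432 and 416 bp, and PHO84, the high-affinity phosphate transporter gene, at 432 and 429 bp. Also among them were CDC42, the polarity GTPase gene (565 and 574 bp), HSL1, a kinase gene of the morphogenesis checkpoint (517 and 498 bp), and UTP22, which acts in ribosome assembly (548 and 549 bp). The others were YBR238C, RMI1, YOR342C, MRPL44, ESS1, NEO1, NMA1, SDH9, UBP9 and OM14.

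Far in both 6 h BYTA libraries and listed in neither DTT library were 9 of 39 genes (23.1%), against 25.9% of all 108 genes listed in both 6 h BYTA libraries. FBP1, the fructose-1,6-bisphosphatase gene of gluconeogenesis, was at 419 and 437 bp. CIT2, the peroxisomal citrate synthase gene of the glyoxylate cycle, was at 419 and 403 bp, and NDE1, a mitochondrial external NADH dehydrogenase gene, at 455 and 453 bp. YGP1, a secreted glycoprotein gene known to be induced by starvation, was at 533 and 538 bp, and SKS1, a kinase gene linked to growth in low glucose, at 597 and 579 bp. The others were RPM2, YGR067C (505 and 467 bp), RIE1 (558 and 553 bp) and SK1_04G05350, which has no systematic name in the tables (486 and 492 bp). The 6 h BYTA lists differ in length from each other and from the DTT lists, and the part of that in absent listings was not tested.

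SKS1 and RMI1 face away from each other across 1334 bp on chromosome XVI. The DTT summits in that stretch, 538 and 553 bp from RMI1, were assigned to RMI1, a gene of the Sgs1 helicase complex, and the 6 h BYTA summits to SKS1. HTZ1, the histone H2A.Z gene, and PLB3, a phospholipase B gene, lie 1366 bp apart on chromosome XV, with the 6 h BYTA replicate 1 summit at 534 bp from HTZ1 and the DTT replicate 1 summit at 418 bp from PLB3. In both stretches the summits of the 2 states were thus separate places in 1 intergenic region.

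For 19 of the 144 genes another listed summit was not a far one. For 15 of them a single-window summit nearer than 400 bp still lay at 350 bp or more. The widest move was at KAR2, the gene of the ER chaperone BiP. Its summit was 168 and 167 bp upstream in vegetative cells, 163 and 159 bp at 6 h in BYTA, 158 bp in 21 h BYTA replicate 1, 156 and 161 bp at 6 h 45 min and 163 and 161 bp at 8 h in sporulation medium. With DTT it was listed at 510 bp (chromosome X, position 391512; rank 10 of 296) and 390 bp (position 391632; rank 33 of 245). The 9 libraries without DTT thus agreed within 12 bp, and both DTT libraries stood apart from them and from each other.

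KAR2 and the facing gene TAD2, a tRNA adenosine deaminase gene, start 325 bp from each other, and the summits without DTT lay between the starts, in both windows. The DTT summits lay 184 and 64 bp past the start of TAD2, within that gene. KAR2 was therefore far in 1 library only. Each library listed at most 1 summit per gene, so whether a second summit nearer to KAR2 was called with DTT is not known from the tables.

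HYP2 and UTR5 are a similar pair, with starts 130 bp from each other on chromosome V. The HYP2 summits lay at 425 and 421 bp with DTT and at 466 and 464 bp at 6 h in BYTA, which is 294, 290, 335 and 333 bp past the start of UTR5. UTR5 itself, a gene of unknown function, was listed in vegetative cells only, at 315 and 456 bp, and the latter summit was 325 bp past the start of HYP2. The summits of the 2 genes thus fell on opposite sides of the divergent pair.

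TAL1, the transaldolase gene of the pentose phosphate pathway, was far in vegetative cells (495 and 486 bp) and nearer with DTT (365 and 373 bp) and in 6 h BYTA replicate 1 (355 bp). CTR1, the high-affinity copper transporter gene, was at 387 and 378 bp with DTT and far at 6 h in BYTA (428 and 432 bp). PGI1 and FBA1, both of glycolysis, were farther with DTT. PGI1, for phosphoglucose isomerase, was at 443 and 458 bp with DTT and 361 bp in 6 h BYTA replicate 1, and FBA1 at 450 and 444 bp and then 400 and 381 bp. In each of these genes the values of the states did not overlap. They were chosen for crossing 400 bp, which favours such separation, and TAL1 and PGI1 had only 1 library at 6 h in BYTA. DTT and 6 h BYTA positions also did not overlap in 61.5% of all 78 genes listed in all 4 libraries. PGA2 was at 193 bp in DTT replicate 1 and at 474 bp in 6 h BYTA replicate 1, with 1 library each.

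**Figure D4:**
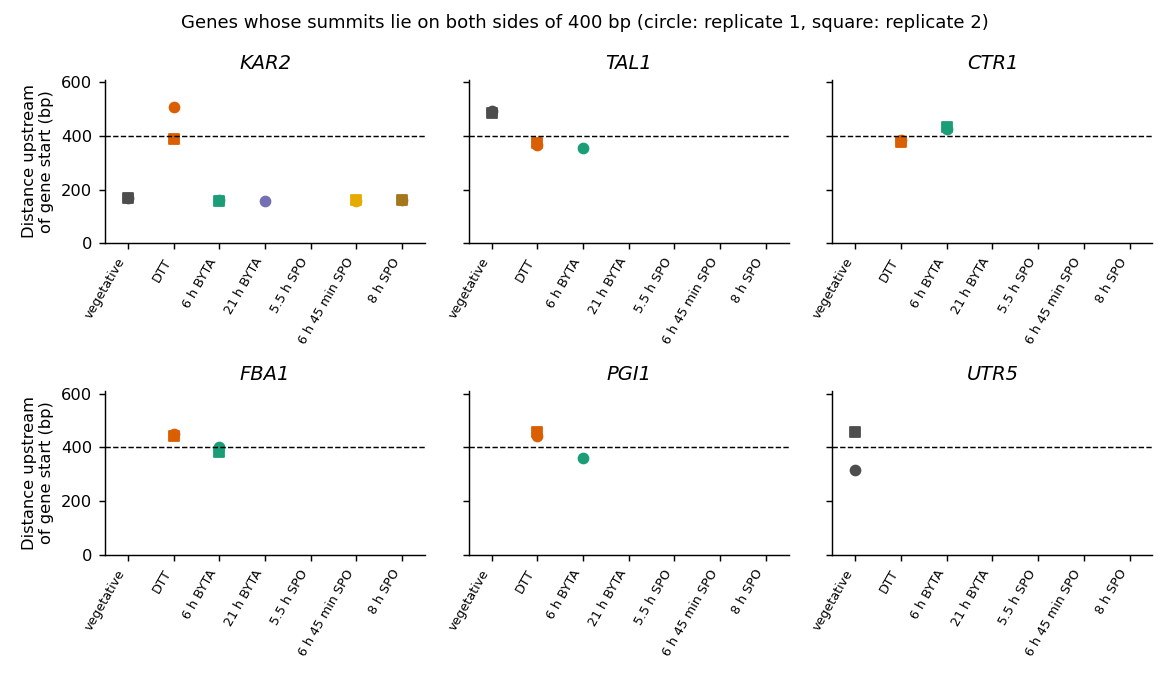
Distance of the listed summit upstream of the gene start (y axis, bp) by state (x axis) for 6 genes with summits on both sides of 400 bp (dashed line); each point is 1 library and SPO is sporulation medium. KAR2 stays between 156 and 168 bp except with DTT (510 and 390 bp), and TAL1 is above the line only in vegetative cells (495 and 486 bp).

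In the other genes that crossed 400 bp the moves were smaller. FMP25 was at 419 bp in vegetative replicate 1 and at 407 and 399 bp with DTT. TEC1, a transcription factor gene of filamentous growth, was at 408 and 393 bp with DTT and 397 and 388 bp at 6 h in BYTA, and MNN1, a mannosyltransferase gene of the Golgi, at 392, 412 and 409 bp. YJL107C was at 409 and 428 bp with DTT and 375 bp in 6 h BYTA replicate 1. ACT1, AMD2, HCM1, LEU2, MET17 and UBX6 also crossed the threshold between libraries. MAM3 and CMC4 crossed by the number of windows, not by distance: their other summits, at 419 to 459 bp for MAM3 and 567 bp for CMC4, lay in a neighbour's window as well.

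The far summits of the short lists were few and can be named in full. In vegetative cells, PSA1, TAL1 and AAR2, a gene of spliceosome assembly (546 and 555 bp), were far in both libraries. In replicate 1, CUE5 (559 bp), RRG1 (528 bp), OM14 (435 bp), DSC3 and FMP25 joined them, and in replicate 2, UTR5 and YGK1 (523 bp) did. Of these 10 genes, 8 had a far summit in at least 1 DTT library too, TAL1 had nearer ones and UTR5 was not listed with DTT. The 8 included AAR2 at 545 bp, RRG1 at 517 bp and CUE5 at 543 bp, all in DTT replicate 2. Of the 70 genes far in both DTT libraries, 2 were listed in vegetative cells, PSA1 and OM14. The matching shares over all listed genes were not computed, so neither overlap can be read as a trait of far summits.

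At 21 h in BYTA, PSA1 (replicate 1), RSF2, a zinc-finger protein gene (540 bp), and COR1, a subunit gene of respiratory complex III (401 bp; both replicate 2), were far, and none was listed in the partner library (background 58.7% of 46 genes). In sporulation medium WHI4, an RNA-binding protein gene, was the only one, at 497 bp in replicate 2 at 5.5 h (rank 10 of 18) and at 489 bp in replicate 2 at 6 h 45 min (rank 12 of 13). It was not listed in replicate 1 of either time (background 24.1 and 48.1% of genes listed in both libraries). No far summit was listed at 8 h, where 54.8% of 31 genes were listed in both libraries.

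Gene groups differed widely in distance. Each group is a chosen list of between 7 and 30 genes that leaves out other listed genes of the same kind. Counts and medians therefore hold for the members of that list only. Groups are described by the number of listed members and the median over genes of each gene's median distance, beside 144 far genes of 561 (25.7%) and a median of 341 bp over all listed genes. Only genes with a single-window summit, 342 of the 561, could be far. Of 14 listed members of the cell wall and surface list, 12 with a single-window summit, 9 had a far summit, with a group median of 477.5 bp. Beside CCW12, CWP1, SED1, CRH1 and YGP1 these were FKS1, the glucan synthase gene (543, 551 and 556 bp in both DTT libraries and 6 h BYTA replicate 1), EXG1, an exoglucanase gene (548, 535 and 535 bp in the same libraries), MSB2, an osmosensor gene (464, 475 and 469 bp), and PIR1, a wall protein gene (468, 486 and 496 bp).

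Of 15 listed plasma membrane transport genes, 12 with a single-window summit, 8 were far, with a median of 430.5 bp. Beside PDR5, SNQ2, TPO1, CTR1 and PHO84 these were the amino acid permease genes AGP1 (525, 539 and 535 bp, both DTT libraries first), DIP5 (535, 529 and 520 bp) and BAP2 (482, 488 and 438 bp). Of 18 listed genes of glycolysis and glucose uptake, 16 with a single-window summit, 8 were far, with a median of 392.5 bp: CDC19, FBA1, PDC1, PGI1, HXT3, HXT5, PFK2 and TDH1. HXT5, a glucose transporter gene, was at 575 and 561 bp with DTT and 572 bp in 6 h BYTA replicate 1, while PFK2 (455 bp) and TDH1 (468 bp) were listed in 6 h BYTA replicate 1 only.

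Of 9 listed genes of gluconeogenesis and acetate use, 6 with a single-window summit, 4 were far, with a median of 428 bp. CIT2, FBP1 and JEN1, the lactate permease gene (528 bp in replicate 1), were listed only at 6 h in BYTA, and PCK1 in both states. Of 5 listed members of the transcriptional regulator list, 4 with a single-window summit, 3 were far: ROX1, TEC1 and CIN5 (451 bp in 6 h BYTA replicate 1). Regulator genes outside that list were not counted, and HCM1 and RGT1 are only examples of far ones. HAC1 was not far, but its summits were shared between windows, so the single-window rule left it out in advance. Of 9 listed lipid and sterol genes 2 were far, ERG25 and ERG5 (475 bp in DTT replicate 2 and 487 bp in 6 h BYTA replicate 1). The group's median was 476 bp, and only these 2 genes had a single-window summit.

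The ER groups lay at the other end. Of 11 listed ER folding genes, 4 had a single-window summit and only KAR2 was far, in 1 library, and the group's median was 98.5 bp. Of 7 listed members of the glycosylation and GPI anchor list, 5 had a single-window summit and only PSA1 was far, and the median was 148 bp. The mannosyltransferase gene MNN1, which is not in that list, was far in 2 libraries. From the ER translocation and degradation list 4 genes were listed, from the UPR signalling list 2 (HAC1 and INO2) and from the ribosomal protein list 2. Of these, 0 were far, with medians of 252, 199 and 223.5 bp, and 3, 1 and 1 of them had a single-window summit. Other ribosomal protein genes, such as RPL16A and RPS4A, were listed without a far summit but are not in that list. Of 15 heat shock and stress genes, 10 with a single-window summit, CTT1, the cytosolic catalase gene, was the far one (443, 442 and 436 bp), with a group median of 297 bp. The groups were chosen with earlier results of these data known and were not tested against other genes.

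**Figure D5:**
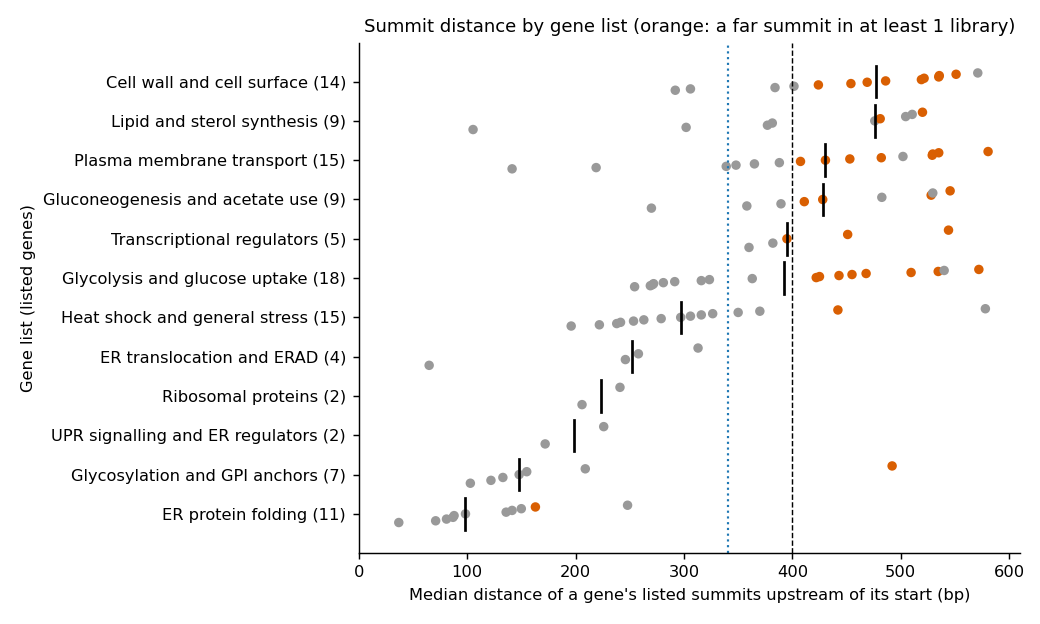
Median distance of each listed gene's summits upstream of its start (x axis, bp) by gene list (y axis, number of listed genes in brackets); orange points are genes with a far summit in at least 1 library, grey points are the others, which at more than 400 bp lie in several windows, and black bars are list medians. The dotted line is the median of all listed genes, 341 bp, and the dashed line marks 400 bp. Members of the cell wall list sit at a median of 477.5 bp and those of the ER folding list at 98.5 bp.

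The next gene upstream was read from the gene order of the R64 reference assembly, in which 549 of the 551 listed genes with a systematic name had the same chromosome and strand as in the tables. Of 140 far genes with such a name, 83 (59.3%) had an upstream neighbour on the same strand, so that its end faces the gene, against 75.1% of 209 genes with a nearer single-window summit and 48.0% of 5991 protein-coding genes. The single-window rule itself removes genes with a close divergent neighbour: of 223 genes with a shared summit, 6.28% had a same-strand neighbour. The shares are therefore descriptions.

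A tRNA gene was the next gene upstream for 15 of the 140 far genes (10.7%), 12.4% of the nearer ones and 5.26% of all protein-coding genes. Of the 15, 13 were far with DTT, beside 100 of all 144 far genes. Of the far summits with a named gene, 12 of 89 (13.5%) and 8 of 79 (10.1%) were next to a tRNA gene with DTT, and 3 of 89 (3.37%) and 2 of 40 (5.0%) at 6 h in BYTA. The same held for nearer single-window summits, with 16.7 and 15.7% with DTT and 2.73 and 4.35% at 6 h in BYTA. DTT minus 6 h BYTA was 7.62 percentage points for far and 12.6 for nearer summits, each with an exact permutation p of 0.33, the smallest possible.

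Of all 144 far genes, 100 were far with DTT, and 56 of those were far at 6 h in BYTA too. Of the 15 genes next to a tRNA gene, 12 had a far summit with DTT and none at 6 h in BYTA. They were CRH1, CDC42, UTP22, UBP9, NMA1 and SDH9, each in both DTT libraries, KRE6, NOT5, LEU2, PGM1 and ARO8 in replicate 1 only, and AMD2 in replicate 2 only. PSA1 was far in both states, and FBP1 and RNR4, a ribonucleotide reductase gene, only at 6 h in BYTA. Their 28 far summits had a median rank percentile of 29.0, against 52.3 over all far summits, and 9 of them stood above the latter: PSA1 in 6 of its 7 libraries, CRH1 with DTT (65.0 and 62.2) and FBP1 in 6 h BYTA replicate 1 (63.4). Whether the signal belongs to the tRNA gene or to the listed gene was not tested.

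A small nucleolar RNA gene was next upstream for 7 far genes (5.0%), against 1.91% of nearer and 0.85% of all protein-coding genes. They were AAR2, CUE5, DSC3, ERG25, HLR1, RGT1 and SPE2. In vegetative replicate 1, 3 of the 8 far summits were upstream of such genes (AAR2, CUE5 and DSC3). Among the nearer single-window summits of that library, 3 of 5 were so placed as well.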

How the data were processed

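Each deposited table pairs the peak summits of 1 library with promoter windows and genes, per the file headers. The authors' summit positions are in SK1 coordinates (assembly not given in the sources used here), and the deposited score of a summit is of a type the file headers do not name. The submitters' processing notes list ChIPseeker 1.44.0, MACS2 2.2.9.1, SAMtools 1.7 and Bowtie2 2.3.4.1. No source used here gives the control of each peak call. The 14 inputs were not analysed here. Within each list, scores served for ranks and filters alone.

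Distance was counted from the window's edge at the gene. Libraries were assigned by the name inside each peak name. Shares have exact Clopper-Pearson 95% intervals, which cover counting error only. States were compared with two-sided exact permutation tests over libraries, and far with nearer summits with exact sign-flip tests over libraries holding at least 3 of each, at a threshold of 0.05. Far summits by rank and recurrence made 2 tests, adjusted together by Benjamini-Hochberg. Recurrence was scored between the 2 libraries of a state, so the units of its sign-flip test were not independent. The tests were checked only on simulated data with a built-in difference, not on data without one or on short lists. Nothing says that replicates came from separate cultures, so their spread may be technical, and no source ties equal replicate numbers together, so the main comparison was unpaired. Alternatives were thresholds of 300 and 500 bp, the nearest gene for every summit, scores of at least 500, leaving out each library, and a replicate block.

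Genes named were those far in at least 2 libraries (up to 30, by number of libraries, then mean rank), the 5 best far summits of each list of at least 20, every far summit of the short-list states, and genes within 5 bp of 400 bp or crossing it. Other genes named, such as list members, those far in 1 state and those next to RNA genes, were chosen after their values were seen. Members and gene lists were chosen with earlier results of these data known. Symbols came from the tables or the RefSeq R64 table, which matched 551 of 551 systematic names and gave gene order and orientation; 4 far genes had no systematic name. A planned measure of the gap to the upstream gene was left out because R64 and the SK1 coordinates differ. Python 3.11.15, numpy 2.4.6, pandas 2.3.3, SciPy 1.17.1 and matplotlib 3.10.9 were used.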

Additional observations from a re-analysis of the deposited data

How the results depend on the processing

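The number of far summits went from 322 to 485 at 300 bp and 140 at 500 bp, and to between 229 and 322 without single libraries. Mean far shares at 300 and 500 bp were 71.8 and 22.6% in vegetative cells, 64.2 and 17.0% with DTT, and 76.3 and 25.6% at 6 h in BYTA. With every summit given to its nearest gene, the shares were of all summits, not of single-window ones. They were 41.5% in vegetative cells, 33.8% with DTT and 43.9% at 6 h in BYTA. The vegetative mean was then below that at 6 h in BYTA. Without single libraries, shares ranged from 55.6 to 61.5% in vegetative cells, 39.6 to 43.01% with DTT and 44.9 to 61.2% at 6 h in BYTA, and DTT minus 6 h BYTA from -19.9 to -3.60 points. With the replicate block that difference was -11.7 points (exact p = 0.5, the smallest possible), and the block changed no call. The rank difference of 4.07 points turned to -2.54 against all other summits, -0.11 at 300 bp, -0.68 with the nearest gene and -3.75 with scores of at least 500, and ranged from 0.26 to 12.1 without single libraries. The recurrence difference turned to 5.29 points at 300 bp and 2.01 with scores of at least 500, and ranged from -6.46 to 8.15 without single libraries; in the 4 long lists alone, chosen after the data were seen, it was 8.15. None of these differences passed the threshold, and the cause of each change of sign was not tested. Under settings added after the data were seen, the count of genes far in all 4 DTT and 6 h BYTA libraries went from 28 to 38 at 300 bp, 30 with the nearest gene, 11 at 500 bp and 16 with scores of at least 500. Non-overlapping positions went from 19 to 23, 20, 7 and 12 under the same settings, and to 7 with a gap of more than 10 bp. Read depth is unknown, and short lists limit the vegetative, 21 h and sporulation values.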
